A study of Mus musculus with 2 samples.

Results

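The 10 genes described here encode the kinases ROCK and LIM kinase, the actin-severing proteins of the cofilin family and the proteins that hold actin monomers: Rock1, Rock2, Limk1, Limk2, Cfl1, Cfl2, Dstn, Pfn1, Pfn2 and Tmsb4x. They were taken by gene symbol from the deposited expression table, and 10 of 10 were found among its 18032 genes. The study set naive against primed mouse pluripotent cells, and polyadenylated RNA was sequenced in 1 library of each kind. The mESC library came from embryonic stem cells of the line ES-E14TG2a, labelled wild type and grown without feeders in 2iLIF, serum-free N2B27 medium with LIF at 100 units/ml, the ERK pathway inhibitor PD0325901 at 1 µM and the GSK3 inhibitor CHIR99021 at 3 µM. This medium keeps cells in the naive state. The cEpiSC library came from epiblast stem cells made from 2iLIF cultures, likewise labelled wild type. These were replated onto a fibronectin coat, kept in 2iLIF for 24 h, and then given N2B27 with activin A (20 ng/ml) and, at 12 ng/ml, FGF2 for 2 days. Substrate, medium and state changed together, so their effects cannot be told apart.

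In this pathway the ROCK kinases stand upstream. ROCK phosphorylates and activates the LIM kinases, and it also raises the phosphorylation of myosin light chains. LIM kinase in turn phosphorylates cofilin on a serine near its start and so switches off its binding to actin. Active cofilin and its relative destrin sever filaments and free monomers, profilin hands monomers to growing filament ends, and beta-thymosins hold monomers in reserve. In primed pluripotent cells, inhibitors of ROCK are widely used to keep dissociated cells alive.

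The serine that LIM kinase phosphorylates is the third residue of each cofilin family protein, counting the starting methionine. The first 30 coding bases of the 3 genes are shown because this site joins the kinases to their substrates, with codon 3 in capitals. They come from GENCODE vM21 transcripts and are written 5′ to 3′.
Cfl1: atggccTCTggtgtggctgtctctgatggt
Cfl2: atggcaTCTggagttacagtgaatgatgaa
Dstn: atggccTCAggagttcaggttgcggatgaa
Codon 3 is TCT in Cfl1 and Cfl2 and TCA in Dstn, all codons for serine. Over the whole coding sequence 71.5% of aligned bases were identical between Cfl1 and Cfl2 and 69.6% between Cfl1 and Dstn, with no identical run longer than 20 bases in either comparison.

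The libraries held 1.98e+07 (mESC) and 2.00e+07 (cEpiSC) estimated counts. Levels across libraries are given as CPM, counts relative to a library size scaled with TMM, and levels across genes as the authors' TPM, which are also per length. Ratios are log2 of cEpiSC over mESC with an exact 95% interval in brackets that covers counting error only. With 1 library per state there is no replicate check and no p-value, and a gene is called higher or lower by size alone. The labels were checked with fixed markers. By the 2-fold rule, 5 of 5 primed markers were higher in cEpiSC and 4 of 6 naive markers lower. Markers of other cell types summed to 3.88 and 7.28 CPM for fibroblasts, 16.7 and 14.9 CPM for primitive endoderm, 16.9 and 14.3 CPM for mesendoderm and 73.2 and 33.5 CPM for neural cells, in mESC and cEpiSC in that order. The neural sum was mostly Tubb3 (69.7 and 25.9 CPM), while Pax6 (0.103 and 1.61 CPM) and Sox1 (3.46 and 5.86 CPM) went the other way. The primitive endoderm difference was mostly Gata4 (8.79 and 4.30 CPM), while Gata6 (5.63 and 7.48 CPM), Pdgfra and Sox17 went the other way. The intervals of Pdgfra and Sox17 included 0. The mesendoderm sum was mostly Eomes (13.5 and 13.4 CPM). Lower by the 2-fold rule were T (40 and 10 counts) and Mixl1 (26 and 5 counts), while Mesp1 had 0 and 3 counts. The fibroblast difference was mostly Thy1 (1.09 and 4.59 CPM). Of 7 fibroblast markers Dcn, Col3a1 and Postn had 0 counts in mESC, and Lum and Postn in cEpiSC. At 0 were also Mesp1 and Neurog2 in mESC and Foxa2 in cEpiSC. The part of such cells in the results below was not tested, and fewer cells of a type and less RNA per cell cannot be told apart in bulk RNA.

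By the 2-fold rule 2 of the 10 genes were higher in cEpiSC, the thymosin gene Tmsb4x and the profilin gene Pfn2, and 0 were lower. Tested here means reaching 1 CPM in either library, as 13243 genes did. Of these, 13.6% passed the 2-fold rule upwards, 9.25% downwards and 22.8% either way. A 1.5-fold rule added Rock2, lower in cEpiSC, and was passed by 20.7% of tested genes upwards, 18.9% downwards and 39.6% either way. The counts among the 10 genes lie near these background shares. The 10 genes had a median log2 ratio of -0.14, beside -0.02 for all tested genes. The averaged lower and upper counting bounds of the middle genes Cfl2 and Pfn1 were -0.23 and -0.06, which is not an interval of the median.

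Abundance matters for these shares. Of the 10 genes 5 (Rock2, Limk2, Cfl1, Dstn and Pfn1) reached 100 CPM in either library, as did 2767 genes in all, and 0 of these 5 passed the 2-fold rule. That rule was passed by 3.72% of the abundant genes upwards, 8.49% downwards and 12.2% either way. At 1.5-fold, which Rock2 passed, the shares were 7.77%, 19.7% and 27.5%.

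**Figure D1:**
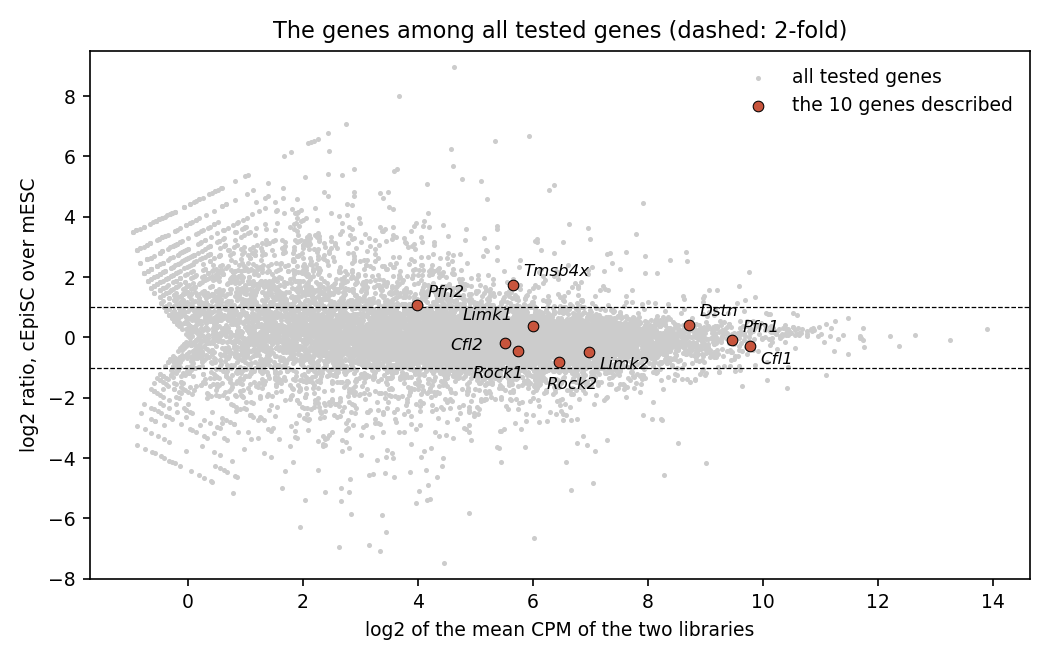
Log2 ratio of cEpiSC over mESC (y) against the log2 of the mean CPM of both libraries (x) for all 13243 tested genes in grey and the 10 genes in red, with dashed lines at 2-fold. Tmsb4x (1.75) and Pfn2 (1.08) lie above the upper line, and the other 8 lie between the lines.

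Of the 2 kinases at the head of the pathway, Rock2 passed the 1.5-fold rule downwards and Rock1 passed neither rule. Rock1 (Entrez 19877, chromosome 18, 10064401 to 10182251 in GRCm38.p6) had 1198 counts in mESC and 928 in cEpiSC, or 61.9 and 45.3 CPM, a log2 ratio of -0.45 (-0.57 to -0.32). Rock2 (Entrez 19878, chromosome 12, 16894978 to 16988274) had 2170 and 1306 counts, or 112 and 63.8 CPM. It was 1.76-fold lower (-0.81 [-0.91 to -0.71]), the lowest ratio of the 10 genes, and 12.4% of all tested genes lay below it. Rock2 was the more abundant of the pair in both libraries, at 28.7 against 18.4 TPM in mESC and 15.7 against 13.2 TPM in cEpiSC. The interval of the difference between their ratios, 0.36 (0.20 to 0.52), did not include 0, and the summed TPM of both was 47.1 in mESC and 28.9 in cEpiSC. Both transcripts are long, and long transcripts were lower as a class: the median log2 ratio of the tenth of genes with the longest effective length, to which both belong, was -0.32. Set against that median, Rock1 was at -0.13 and Rock2 at -0.49, so that Rock2 no longer passed the 1.5-fold rule.

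The LIM kinases, which ROCK activates, differed in opposite directions. Limk1 (Entrez 16885, chromosome 5, 134656039 to 134689859) went from 1085 to 1480 counts, or 56.1 to 72.3 CPM, and was 1.29-fold higher (0.37 [0.25 to 0.48]). Limk2 (Entrez 16886, chromosome 11, 3343297 to 3409276) went from 2851 to 2150 counts, or 147 to 105 CPM, and was 1.40-fold lower (-0.49 [-0.57 to -0.41]). Their intervals lay on opposite sides of 0. Neither reached 1.5-fold, yet the makeup of the pair moved more than either gene did alone. Limk1 made up 30.5% of the summed TPM of both in mESC and 44.2% in cEpiSC, while that sum was 104 and 89.8 TPM. Of counts the share of Limk1 was 27.6% (exact Clopper-Pearson 95% interval 26.2 to 29.0) and 40.8% (39.2 to 42.4). The difference between the ratios of the pair was 0.86 (0.71 to 1.00), which does not depend on how the libraries were scaled.

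**Figure D2:**
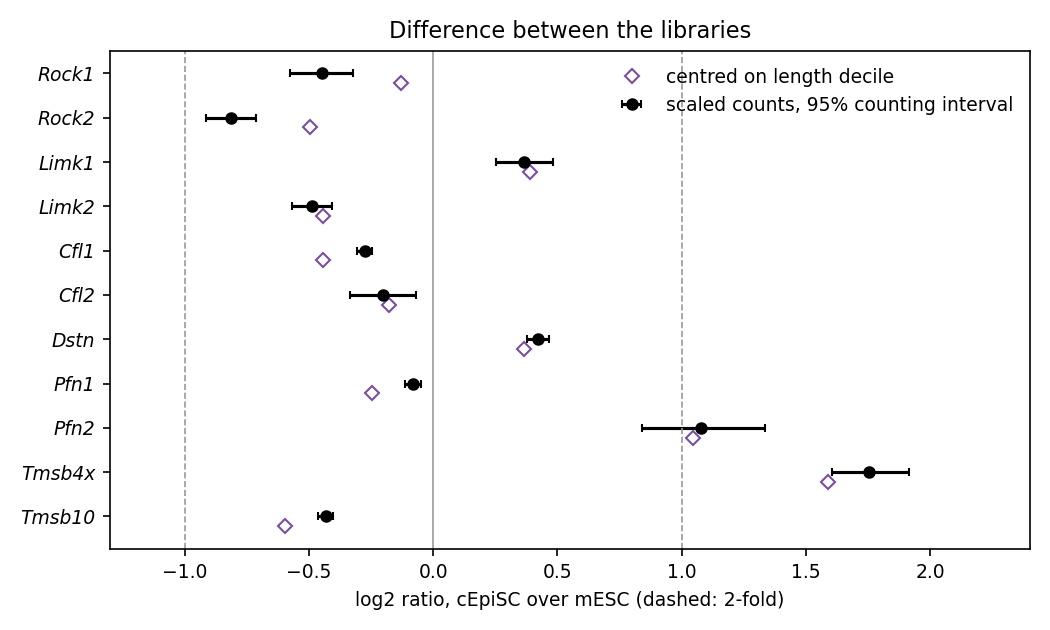
Log2 ratio of cEpiSC over mESC (x) for the 10 genes and Tmsb10 (y), as black points with exact 95% counting intervals and as open diamonds after subtracting the median of genes of like effective length, with dashed lines at 2-fold. The diamonds of Rock1 (-0.13) and Rock2 (-0.49) lie nearer to 0 than their points, and those of Cfl1 (-0.44) and Pfn1 (-0.25) farther from it.

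In the cofilin family, substrates of LIM kinase, 0 of 3 genes passed the 1.5-fold rule, and the ratios of Cfl1 and Cfl2 lay below 0 and that of Dstn above it. Cfl1 (Entrez 12631, chromosome 19, 5490455 to 5494031), the non-muscle cofilin, had 18528 and 16190 counts, or 957 and 791 CPM, and was 1.21-fold lower (-0.28 [-0.31 to -0.24]). Cfl2 (Entrez 12632, chromosome 12, 54858815 to 54862877), the form that prevails in muscle, had 945 and 869 counts, or 48.8 and 42.5 CPM (-0.20 [-0.34 to -0.07]). Dstn (Entrez 56431, chromosome 2, 143915331 to 143943324), which encodes destrin or ADF, had 6953.93 and 9857.69 estimated counts, or 359 and 482 CPM, a log2 ratio of 0.42 (0.38 to 0.47). Dstn was the sole member with counts that are not whole (beyond a tolerance of 0.005), a sign of reads divided between loci, so it is less certain than its interval says. Cfl1 and Cfl2 did not differ in their ratios beyond counting error (difference -0.07 [-0.21 to 0.06]), whereas Dstn and Cfl1 did (0.70 [0.64 to 0.75]). Set against the median of genes of like effective length, Cfl1 (-0.44) and Cfl2 (-0.18) lay farther apart.

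The family's makeup shifted accordingly. Cfl1 made up 80.3% of the family's TPM in mESC and 72.1% in cEpiSC, Dstn 18.2% and 26.5%, and Cfl2 1.56% and 1.48%. There were 4.41 Cfl1 transcripts per Dstn transcript in mESC by TPM and 2.72 in cEpiSC. The summed level of the family was 1962 TPM in mESC and 1748 TPM in cEpiSC, or 1066.5 and 1033 on the FPKM scale. Its unscaled counts, at 26427 and 26917, went the other way.

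**Figure D3:**
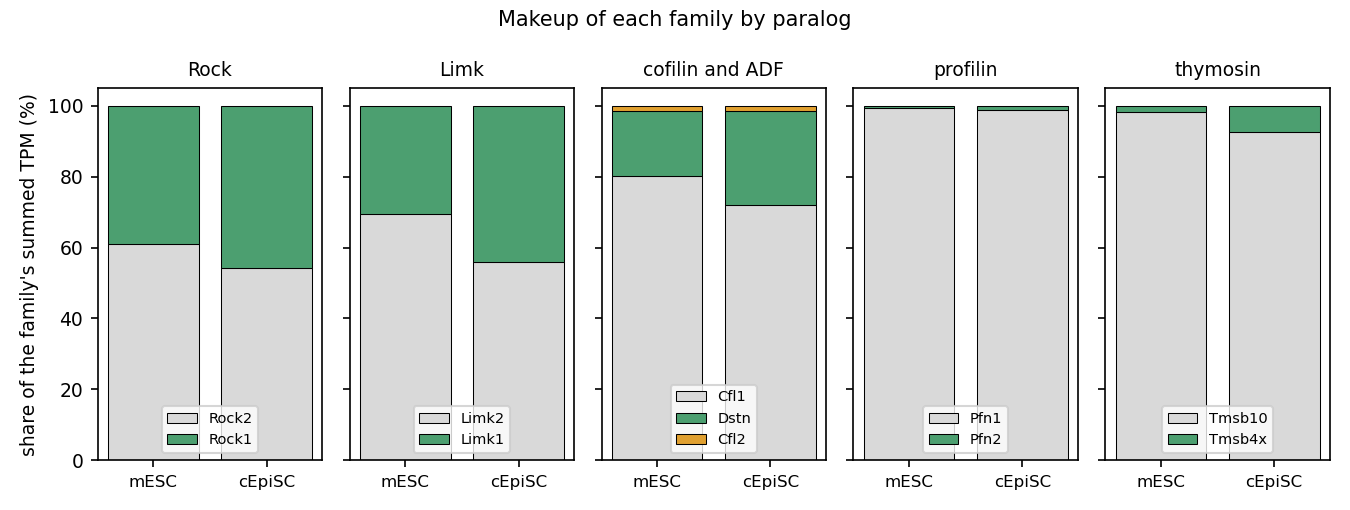
Share of each paralog (y, percent of the family's summed TPM) in mESC and cEpiSC for the 5 families, with Tmsb10 added as partner of Tmsb4x. The grey segment, the most abundant paralog in mESC, is shorter in cEpiSC in each panel, from 69.5% to 55.8% for Limk2 and from 98.2% to 92.5% for Tmsb10.

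Both profilins promote the exchange and delivery of actin monomers, and they stood at very different levels. Pfn1 (Entrez 18643, chromosome 11, 70651844 to 70656799), the ubiquitous form, had 14028 counts in each library, or 725 and 685 CPM after scaling (-0.08 [-0.11 to -0.05]). Pfn2 (Entrez 18645, chromosome 3, 57841895 to 57847757), the form best known from neurons, had 197 and 442 counts, or 10.2 and 21.6 CPM. It was 2.12-fold higher in cEpiSC (1.08 [0.84 to 1.33]), so its interval reaches below 2-fold, and its log2 ratio was 0.97 on the log2(TPM + 1) scale. Pfn2 still made up only 0.562% of profilin TPM in mESC and 1.25% in cEpiSC, and Pfn1 outnumbered it 177-fold and 78.8-fold by TPM. The summed profilin level was 1684 and 1553 TPM, a direction that flips on the FPKM scale (915 and 917).

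Tmsb4x (Entrez 19241, chromosome X, 167207093 to 167213479), which encodes thymosin beta 4, showed the largest difference of the 10 genes. It had 444 counts in mESC and 1588 in cEpiSC, or 22.9 and 77.6 CPM. It was 3.38-fold higher in cEpiSC (1.75 [1.61 to 1.91]), and 92.9% of all tested genes had a lower ratio. Its close relative Tmsb10 (Entrez 19240, chromosome 6, 72957347 to 72958748), not one of the 10 genes, was far more abundant and differed in the other direction, at 20264 and 15893 counts, or 1047 and 777 CPM (-0.43 [-0.46 to -0.40]). Tmsb4x made up 1.76% of the TPM of the pair in mESC and 7.54% in cEpiSC. Tmsb10 outnumbered it 55.9-fold and 12.3-fold, and the sum of both was 4041 TPM in mESC and 3093 TPM in cEpiSC. The sum of the pair thus followed Tmsb10 and not Tmsb4x.

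The whole coding sequences of the 2 thymosins are shown because these small proteins share a task while their transcripts differed in opposite directions. Capitals mark the bases that differ. Both were taken from GENCODE vM21 and are written 5′ to 3′.
Tmsb4x: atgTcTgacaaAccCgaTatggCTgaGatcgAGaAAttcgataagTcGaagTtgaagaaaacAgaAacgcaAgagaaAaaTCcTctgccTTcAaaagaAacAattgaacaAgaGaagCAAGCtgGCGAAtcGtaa
Tmsb10: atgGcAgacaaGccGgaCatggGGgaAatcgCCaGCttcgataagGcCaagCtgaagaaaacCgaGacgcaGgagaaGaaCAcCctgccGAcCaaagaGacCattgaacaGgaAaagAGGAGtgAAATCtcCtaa
Of 135 bases 40 differ, 25 of them at the third codon position, and 18 of 45 codons are identical. The longest identical run was 10 bases, and the 2 genes shared no stretch of 100 bases in any annotated transcript. Tmsb10 did share such stretches with 2 other annotated genes, Gm9844 and Gm3788, which are absent from the deposited expression table. Whether reads of those genes were counted for Tmsb10 was not tested.

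The order of levels changed around Tmsb4x. By TPM in mESC, Pfn1 (1675) and Cfl1 (1575) led, followed by Dstn (357), Limk2 (72.4), Tmsb4x (71.1), Limk1 (31.8), Cfl2 (30.7), Rock2 (28.7), Rock1 (18.4) and Pfn2 (9.47). The counting intervals of neighbours overlapped for Limk2 and Tmsb4x, for Limk1 and Cfl2, and for Cfl2 and Rock2. In cEpiSC the first 3 kept their places at 1533, 1259.6 and 463 TPM, Tmsb4x came next at 233, and Limk2 (50.1), Limk1 (39.7), Cfl2 (25.8), Pfn2 (19.5), Rock2 (15.7) and Rock1 (13.2) followed, with no overlap between neighbours. Pfn2 stood last in mESC and above both Rock genes in cEpiSC. In each of the 5 families, a pattern noted after the values were seen, the paralog most abundant in mESC had the lowest ratio, although Cfl1 and Cfl2 lay within counting error of each other. Less abundant genes were also called higher more often among all tested genes (13.6% of all, 3.72% of the abundant ones), and the part of abundance in this pattern was not tested.

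**Figure D4:**
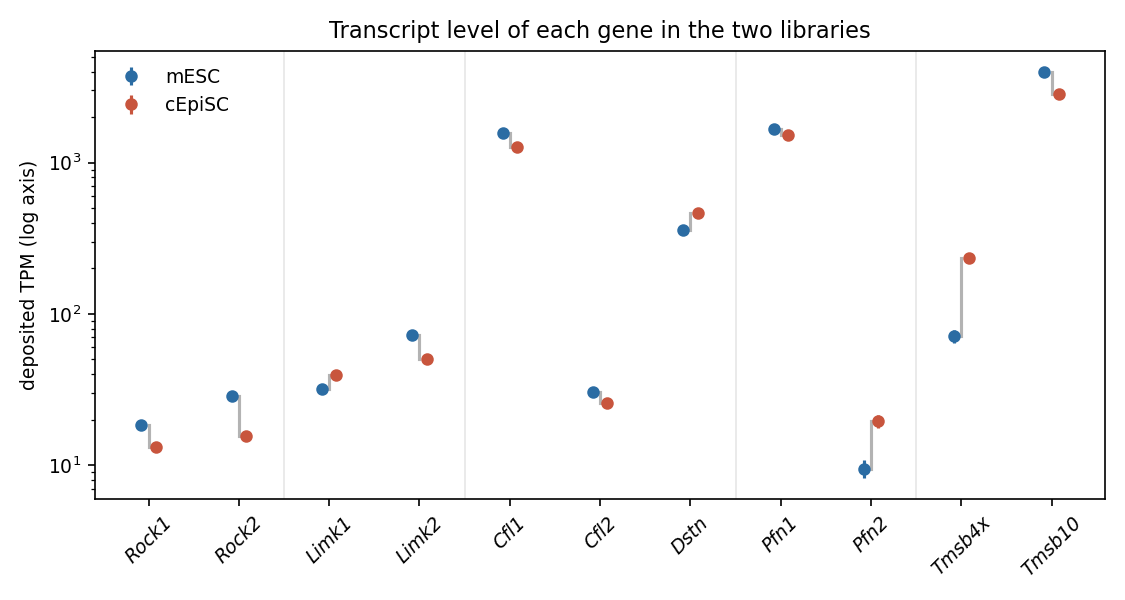
Deposited TPM (y, log axis) of the 10 genes and Tmsb10 (x) in mESC (blue) and cEpiSC (red), with exact 95% Poisson intervals that cover counting error only. Tmsb4x goes from 71.1 to 233 TPM and Pfn2 from 9.47 to 19.5, while Pfn1, Cfl1 and Tmsb10 stay above 1000 TPM in both libraries.

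The deposited counts and FPKM together imply the effective length over which each gene was counted, which moves when reads are assigned to another mix of transcripts. Relative to the median gene, this length differed between the libraries by at most 1.35% among the 10 genes (Rock1, 6037 and 5954 bases), whereas it differed by more than 5% for 4.31% of 7926 genes at 5 FPKM or more in both. Limk2, with 13 annotated transcripts, was at 3648 and 3640 bases. A change of isoform that leaves length alone would not be seen in this measure. No 2 members shared a 100-base stretch in GENCODE vM21 transcripts. Rock1 shared such stretches with 1 other annotated gene and Rock2 and Cfl1 with 2 each, while Dstn shared none. Of these other genes, 0 for Rock1, 1 for Rock2 (Tbk1) and 1 for Cfl1 (Snx32) are in the deposited expression table. The counts of Rock1, Rock2 and Cfl1 were whole in both libraries, and those of Dstn were not. Whole counts cannot show whether reads were shared with genes that are missing from that table. Cfl1 overlaps exons of Snx32 on the opposite strand over 468 bases, and Snx32 had 8 and 4 counts.

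The bases before the transcript start were compared for Tmsb4x and Pfn2, the genes called higher. The 250 bases upstream of each start are shown from RefSeq, GRCm38.p6, 5′ to 3′ on the gene's own strand, with matches to GGGCGG (the GC box, searched on both strands) in capitals. The windows are chrX:167209219-167209468 (minus strand), which lies before an internal start within the Tmsb4x gene, and chr3:57847758-57848007 (minus strand), just before the Pfn2 gene.
Tmsb4x: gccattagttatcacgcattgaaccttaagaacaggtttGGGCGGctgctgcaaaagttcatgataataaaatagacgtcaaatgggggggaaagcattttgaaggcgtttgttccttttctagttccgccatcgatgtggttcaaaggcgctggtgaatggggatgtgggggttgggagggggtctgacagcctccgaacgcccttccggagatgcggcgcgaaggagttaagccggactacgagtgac
Pfn2: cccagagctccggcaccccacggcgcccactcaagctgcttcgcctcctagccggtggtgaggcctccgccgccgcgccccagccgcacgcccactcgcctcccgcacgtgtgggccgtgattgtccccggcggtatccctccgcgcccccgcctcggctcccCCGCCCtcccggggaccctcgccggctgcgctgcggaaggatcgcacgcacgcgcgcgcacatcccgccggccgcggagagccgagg
Each holds 1 GC box, as do 32.7% of 32851 promoter windows at least once, but their composition differs: 52.0% G and C for Tmsb4x and 78.0% for Pfn2, beside a median of 52.4% for all windows. Neither holds TATAAA (12.4% of all windows), CCAAT (33.9%) or the CArG box, the site of the actin-responsive factor SRF (1.47%). Of the 12 windows found for 9 of the 10 genes, 9 hold a GC box, 4 hold CCAAT and none holds TATAAA or a CArG box. A match is only a description of these letters. An absence covers only exact matches to each consensus within the 250 bases. The bases before the outer start of the Tmsb4x gene were not searched.

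The counts of the surrounding lists stand beside the same shares of all tested genes, 13.6% past the 2-fold rule upwards and 9.25% downwards, and with lists this small nothing is read from them. Among myosin light chain genes and genes that act on light chains beside ROCK, 4 of 15 tested genes passed the 2-fold rule upwards and 0 downwards. The median of this list was 0.01, beside -0.02 for all tested genes. Of the higher genes 2 encode inhibitors of myosin or related phosphatases, Ppp1r14a (3.41 to 17.8 CPM, 2.35 [2.0 to 2.79]) and Ppp1r14c (9 and 55 counts, 2.30 [1.5 to 3.73]). Myl9, a smooth muscle light chain gene, had 10 and 24 counts (1.04 [0.06 to 2.41]). The more abundant light chain genes Myl12b (354 to 203 CPM, -0.80 [-0.86 to -0.75]) and Myl12a (232 to 233 CPM) were within 2-fold. Myl12a and Myl12b have counts that are not whole. The kinase gene Dapk1, named to complete the group, went from 43.6 to 87.7 CPM (1.01 [0.89 to 1.13]). The intervals of Myl9 and Dapk1 reach below 2-fold. Of 9 tested kinases and phosphatases that act on LIM kinase or cofilin, 1 passed the 2-fold rule upwards and 1 downwards, and the median was 0.17. The higher was Pak6 (2.43 to 5.91 CPM, 1.25 [0.79 to 1.80]). The lower was Ssh1, a slingshot phosphatase that removes the inhibitory phosphate from cofilin (83.3 to 37.7 CPM, -1.14 [-1.27 to -1.02]). The other cofilin phosphatase genes Ssh2, Ssh3 and Pdxp were within 2-fold. Pdxp went the other way from Ssh1 (21.2 to 41.3 CPM, 0.96 [0.79 to 1.13]), and its interval reaches past 2-fold. The intervals of Ssh2 (0.15 [-0.01 to 0.30]) and Ssh3 (0.46 [-0.01 to 0.96]) included 0. Of the kinase genes within 2-fold, Pak2 (-0.88) and Pak4 (-0.92) lay below 0. Pak1 (0.17) and Pak3 (14 and 30 counts, 0.93) lay above it.

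Cofilin cofactors and other proteins with an ADF homology fold also went both ways: 4 of 16 passed the 2-fold rule upwards and 2 downwards, around a median of -0.16. Coro2a (11 and 284 counts, 4.39 [3.75 to 5.63]) and Coro2b (9.10 to 27.9 CPM, 1.61 [1.37 to 1.87]), both coronin genes, were higher. Also higher were Coro1a (1.29 to 2.83 CPM, 1.08 [0.43 to 1.87]) and the twinfilin gene Twf2 (41.8 to 84.4 CPM, 1.01 [0.89 to 1.14]). Lower were Cap2 (12.3 to 4.01 CPM, -1.59 [-2.0 to -1.25]), which encodes a protein that helps cofilin and recycles monomers, and Wdr1 (179 to 88.7 CPM, -1.01 [-1.09 to -0.93]), which encodes the cofilin partner AIP1. Coro1a, Twf2 and Wdr1 were named to complete their groups, and their intervals reach to within 2-fold. Among other thymosins, profilins and profilin partners 0 of 8 tested genes were 2-fold apart, with a median of 0.58. That median lies between Tmsb15b1 (22.24 and 33.59 estimated counts, 0.51 [-0.27 to 1.39]) and Tmsb15l (33.09 and 56.23 estimated counts, 0.65 [0.04 to 1.35]), which overlap each other on chromosome X, are near the 1 CPM limit and have counts that are not whole. The 2 most abundant genes of the list were Tmsb10 and the filament-end protein gene Vasp (267 to 134 CPM, -0.99 [-1.06 to -0.93]). The last list joins SRF and its monomer-sensing cofactors with the Phactr genes, which encode regulators of protein phosphatase 1 that also bind actin monomers. Of its 6 tested genes 1 passed the 2-fold rule downwards, Phactr2 (28.2 to 10.3 CPM, -1.44 [-1.69 to -1.22]), and 0 upwards, with a median of -0.36. Srf (0.13) and the cofactor genes Mkl1 (-0.18) and Mkl2 (-0.45) were within 2-fold.

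**Figure D5:**
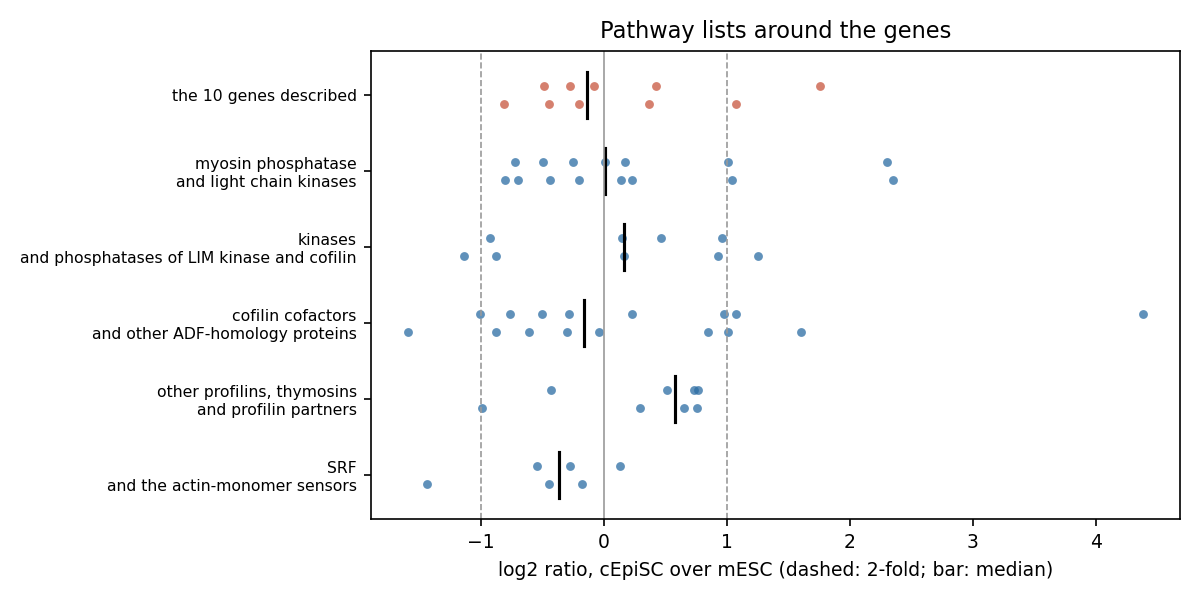
Log2 ratio of cEpiSC over mESC (x) of each tested gene in the 10 genes described (red) and in 5 lists of the surrounding pathway (blue, y), with black bars at the medians and dashed lines at 2-fold. Medians run from -0.36 for the SRF list to 0.58 for the other profilins and thymosins, and Coro2a (4.39) lies farthest to the right.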

How the data were processed

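Polyadenylated RNA of 2 mouse libraries, mESC and cEpiSC, was captured on oligo(dT) beads, fragmented and sequenced with paired reads after dUTP second-strand synthesis, per the labels' protocols. Tools named in the submitters' processing notes are RSEM 1.3.1, HISAT2, Bowtie2 and DESeq2 1.34.0, with the build GRCm38.p6. The annotation and any use of strand in counting are not stated there. The table deposited by the authors holds estimated counts, which are not scaled, and TPM and FPKM values, both per kilobase, per the file headers.

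Estimated counts were rounded and scaled with TMM (factors 0.975 and 1.03) in edgeR 4.0.16. Log2 ratios used a prior count of 2, and the procedure was tested on simulated data. Intervals are exact conditional ones, and those between paralogs come from the odds ratio of counts. The labels name no molecular identifiers, and amplified reads are not independent molecules, so every interval covers counting error only. A gene counted as tested from 1 CPM in either library, and was called by size at 2-fold and 1.5-fold, without a p-value. The 10 members all passed that filter. Effective length was derived from counts and FPKM with the total counts taken as fragment totals. Coordinates (1-based, GRCm38.p6) come from RefSeq by Entrez identifier, which matched 17913 of 18032 genes.

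The members and lists were chosen with earlier results of these data known. Named genes are the 10 members, Tmsb10, and in each list up to 3 of the genes past the 2-fold rule with the largest differences, else its 2 most abundant genes. A few further genes are named to complete a group or to stand beside these. A further gene list is not reported here. Alternatives were DESeq2 1.42.0 size factors, library totals, no filter, a minimum of 5 CPM, a prior count of 0.5 or 5, TPM and FPKM with a pseudocount of 1, and centring on 10 classes of effective length.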

Additional observations from a re-analysis of the deposited data

How the results depend on the processing

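No alternative changed the sign of any of the 10 members. Tmsb4x ranged from 1.59 (length centring) to 1.83 (library totals), Pfn2 from 0.97 (TPM) to 1.15, Rock2 from -0.83 (TPM) to -0.49 and Rock1 from -0.45 to -0.13 (both highest with length centring), Limk1 from 0.31 to 0.44, Limk2 from -0.52 to -0.40, and Dstn from 0.36 to 0.50. Pfn1 lay between -0.25 (length centring) and -0.01 (FPKM). Cfl1 lay between -0.44 (length centring) and -0.20 (FPKM), and Cfl2 between -0.24 (TPM) and -0.12 (FPKM). Members at least 2-fold higher numbered 2, or 1 with TPM, and members at least 1.5-fold lower 1, or 0 with length centring. The members' median stayed between the averaged bounds of its middle genes (-0.23 and -0.06) under the 9 alternatives run. Of all genes 1796 passed the 2-fold rule upwards, against 2712 with no filter, 970 at 5 CPM, 1090 with TPM and 945 with FPKM, and 1225 passed it downwards, against 680 with FPKM. Among myosin light chain genes and genes acting on light chains, those passing upwards fell from 4 to 2 at 5 CPM and with TPM, and to 1 with FPKM. Among regulators of LIM kinase and cofilin, 2 passed upwards with library totals or length centring and 0 with TPM or FPKM, and 0 downwards with FPKM. Of cofilin cofactors 2 passed upwards with TPM, and 1 downwards with library totals, FPKM or length centring. Of other profilins and thymosins 1 passed downwards with TPM or length centring. Apart from the filters, which change only the genes counted, the cause of these moves was not tested. No paired analysis was possible because each state has 1 library, and leaving out a library leaves nothing to compare.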

Other observations

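The monomer-binding families were also set against the cytoplasmic actin genes, a comparison chosen after the values were seen. Actb and Actg1 together stood at 3448 TPM in mESC and 2362 TPM in cEpiSC, and the Actb counts rest in part on reads divided between loci. Profilin transcripts amounted to 48.8% of actin transcripts in mESC and 65.8% in cEpiSC, cofilin and destrin transcripts to 56.9% and 74.0%, and the 2 thymosins to 117% and 131%. Each of the 3 families thus stood higher per actin transcript in cEpiSC, although its summed TPM was lower there (for profilins the sum was not lower in FPKM).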
